A study of Homo sapiens with 9 samples.

Results

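The enzymes that hydroxylate and crosslink collagen were followed at the mRNA level in 3 kidney cell lines. The 10 genes, of 28395 in the count table, were *LOX*, *LOXL1*, *LOXL2*, *LOXL3* and *LOXL4* (lysyl oxidases), *P4HA1* and *P4HA2* (catalytic subunits of the collagen prolyl 4-hydroxylases) and *PLOD1*, *PLOD2* and *PLOD3* (lysyl hydroxylases). They were chosen by enzyme family, with earlier results of these same libraries known, so that their differences between the lines are a description. No p-value is printed for them, and counts of these genes past the threshold of the fit over all genes stand beside the share of all genes past it. All 10 were found by their NCBI gene identifier, and all 10 passed the filter on low counts (an average of 50 or more over the 9 libraries), as did 12695 genes in all.

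The lines were HK2, proximal tubule cells of the kidney, 786-O, clear cell renal cell carcinoma (ccRCC) cells that lack functional *VHL*, and 786-M1A, metastatic cells derived from 786-O. They were untreated and grown stably in Plasmax, a medium with the nutrient composition of human serum, and each was sequenced as 3 libraries. Each state is represented by a single line, so a difference between a normal and a cancer state, or between a primary and a metastatic state, cannot be told apart from a difference between these particular lines. The libraries were replicate cultures of a line, and the spread between them does not include the spread between patients or lines.

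The libraries held between 30212291 and 45362428 reads assigned to genes, so that 3 counts corresponded to between 0.0647 and 0.0961 CPM, the usual measure of reads relative to library size (totals corrected by TMM factors). Intervals and floors based on counts cover counting error only. All 9 libraries were most similar to a library of their own line. Of 8 proximal tubule markers, *LRP2* and *SLC22A6* were at 0 in every library of all 3 lines, and only *GGT1* passed 1 CPM in HK2, while all 5 markers of renal epithelium (*PAX8*, *PAX2*, *KRT8*, *KRT18*, *CDH16*) were above 1 CPM in each line. *CA9*, a usual marker of ccRCC, was at 0 in HK2 and averaged 0.0311 ± 0.0361 CPM in 786-O cells and 0.0088 ± 0.0153 CPM in 786-M1A (SD, n = 3 libraries each). 2 other genes used as ccRCC markers were higher in the cancer lines, *VIM* with 1395 ± 46.4 CPM in HK2, 4835 ± 48.3 in 786-O cells and 6560 ± 99.7 in 786-M1A, and *EGLN3* with 1.72 ± 0.241, 49.9 ± 5.95 and 128 ± 3.45 CPM.

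Collagen chains are hydroxylated in the endoplasmic reticulum before they fold. Prolyl 4-hydroxylases, tetramers of a catalytic α subunit and the protein disulfide isomerase encoded by *P4HB*, modify prolines and so stabilise the triple helix, and lysyl hydroxylases modify lysines that later carry sugars or crosslinks. Outside the cell, the copper-dependent lysyl oxidases convert lysines and hydroxylysines of collagen and elastin to aldehydes, which condense to the crosslinks of the mature matrix. Both groups of hydroxylases use oxygen, iron and 2-oxoglutarate, and several of these genes, *LOX*, *P4HA1* and *PLOD2* among them, are known targets of the hypoxia inducible factors (HIF).

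Promoter sequence is shown for 3 of the genes because they differed in direction between the lines and in the letters of the HIF core motif. RefSeq gave 12 windows of 250 bases immediately before a transcript start for 9 of the 10 genes (GRCh38.p14). ACGTG and GCGTG were searched on both strands, so that CACGTG counts as 2 matches, and the capitals mark a match. The stretches are printed 5′ to 3′ on the strand of the gene, from the far end of the window to the first base that GENCODE 44 annotates as an exon. They are chr5:122078414-122078509 (minus strand) for *LOX*, chr10:98268195-98268444 (minus strand) for *LOXL4* and chr1:11934467-11934693 (plus strand) for *PLOD1*.
LOX: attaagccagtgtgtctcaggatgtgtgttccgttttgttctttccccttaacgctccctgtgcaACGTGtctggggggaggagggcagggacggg
LOXL4: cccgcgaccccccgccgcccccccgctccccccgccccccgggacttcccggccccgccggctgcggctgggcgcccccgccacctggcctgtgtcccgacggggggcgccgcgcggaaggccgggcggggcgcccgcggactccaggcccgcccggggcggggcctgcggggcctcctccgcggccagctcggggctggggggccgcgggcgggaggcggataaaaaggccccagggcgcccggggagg
PLOD1: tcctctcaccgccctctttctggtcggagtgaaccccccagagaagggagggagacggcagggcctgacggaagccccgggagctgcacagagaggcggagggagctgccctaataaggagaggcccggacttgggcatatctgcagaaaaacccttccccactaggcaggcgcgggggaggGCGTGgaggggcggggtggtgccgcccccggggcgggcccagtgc
Of the *LOX* windows, the 1 printed in part held 4 matches to ACGTG, 1 of them in the stretch printed. The other *LOX* windows overlap each other, and each held 1 match to ACGTG and 1 to GCGTG. The *PLOD1* window held 2 matches to GCGTG, 1 of them in the stretch printed. The *LOXL4* window had no match and was composed to 86.4% of G and C, with 37 CpG dinucleotides, against medians of 58.0% and 11 over the 35116 windows of all genes. The *PLOD2* window held 2 matches to ACGTG and 1 to GCGTG, and the *P4HA1* window 1 match to ACGTG. 1 window of *LOXL3* held 1 match to GCGTG, and the windows of *LOXL1*, *P4HA2* and *PLOD3* had none. All 250 bases of the windows of *LOXL1*, *P4HA2*, *PLOD2* and *PLOD3* lay in exons annotated by GENCODE 44. In all, 7 of the 12 windows had a match, the overlapping *LOX* windows included, against 43.2% of the windows of all genes. By gene, 5 of the 9 had a match in any window. These letters are a description of the sequence, and binding was not measured here.

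The most evident split was within the lysyl oxidases. *LOX*, *LOXL1*, *LOXL3* and *LOXL4* were lower in both cancer lines than in HK2, whereas *LOXL2* and all 5 hydroxylase genes were higher. In 786-O against HK2, all 10 genes passed an adjusted p of 0.05 in edgeR, 6 higher and 4 lower, where 84.2% of all genes tested passed, 41.7% higher and 42.5% lower. In 786-M1A against HK2, the same counts of 6 and 4 stood beside 85.0% of all genes tested, 42.0% higher and 42.9% lower. Of the 4 lower, *LOXL3* and *LOXL4* passed the filter on low counts only through HK2. The filter thus set the direction of their calls against HK2. In 786-M1A against 786-O, 8 of the 10 passed, 5 higher and 3 lower, beside 56.2% of all genes tested, 29.0% higher and 27.1% lower. The count of 8 lay between 6 and 8 when a library was left out, through *PLOD1* (without 786-O replicate 2 or 786-M1A replicate 1), *PLOD2* (without 786-O replicate 1) and *LOXL4* (without 786-O replicate 1 or any 786-M1A library). The libraries of the lines compared did not overlap for 10, 10 and 8 of the genes in these comparisons, where 85.5%, 85.0% and 61.7% of all genes tested did not overlap. With a majority of all genes past the threshold, these counts say little about the family, and the sizes of the differences are more informative. The median log2 fold change of the 10 genes was 0.65 in 786-O cells and 0.75 in 786-M1A against HK2, and 0.02 between the cancer lines, beside medians of -0.0118, -0.0102 and 0.0071 over all genes tested. Both comparisons with HK2 use the same HK2 libraries.

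**Figure D1:**
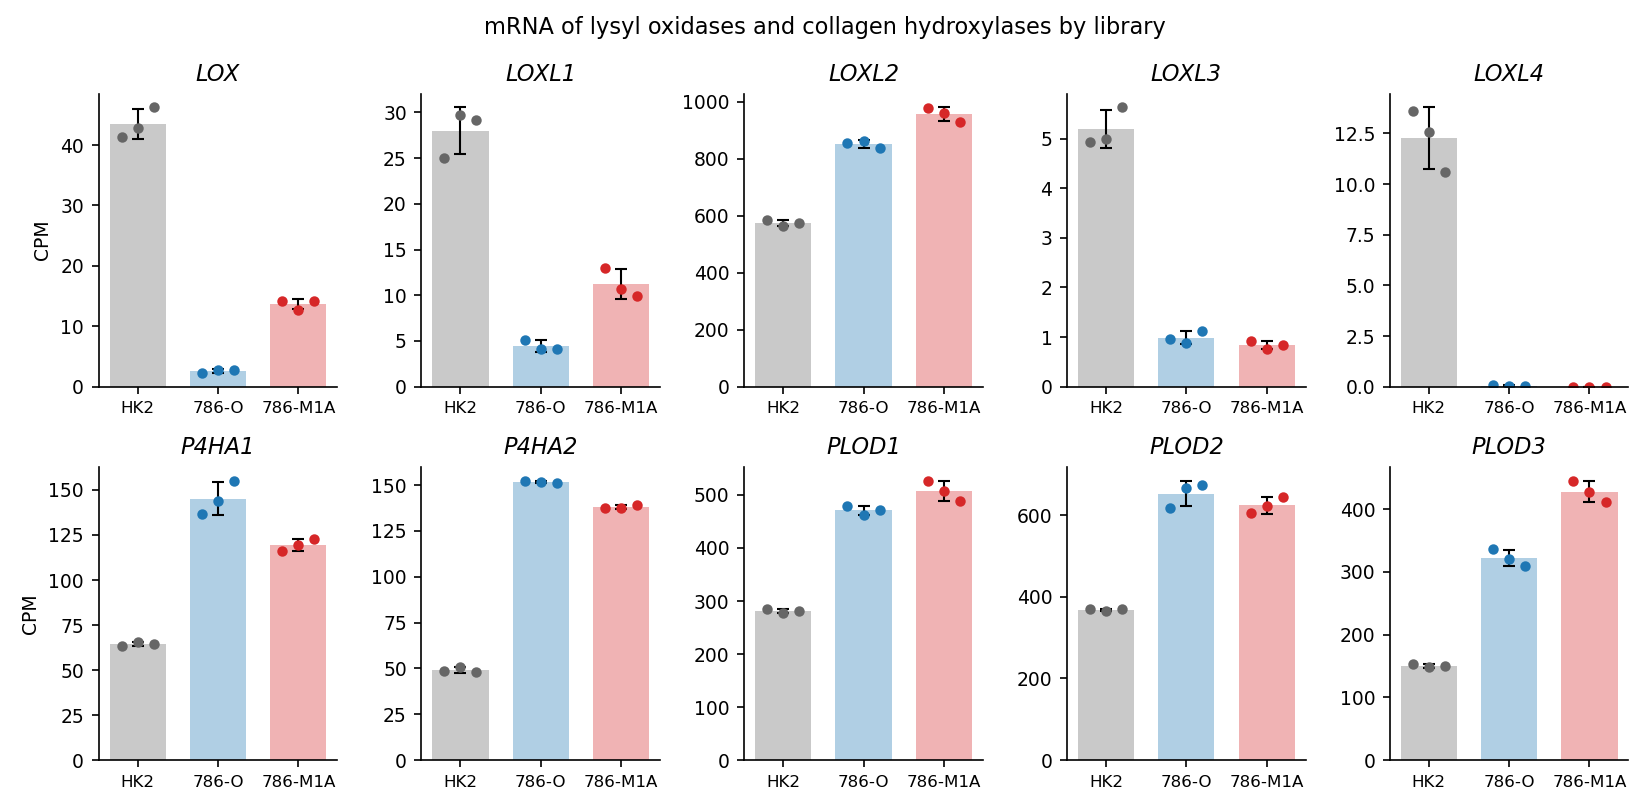
Level of each gene in CPM (linear axes from 0, a separate scale for each gene) in the 3 libraries of HK2 (grey), 786-O (blue) and 786-M1A (red). Points are libraries, bars are means and whiskers are SD. *LOX* and *LOXL1* are highest in HK2, lowest in 786-O and in between in 786-M1A, *LOXL4* is close to 0 in both cancer lines, and the hydroxylase genes are lowest in HK2.

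*LOX* (chromosome 5, 122063195 to 122078413, minus strand; positions of genes are from GENCODE 44 on GRCh38), the founding lysyl oxidase, which acts on fibrillar collagen and elastin, had 41.3, 42.8 and 46.2 CPM in the HK2 libraries. It had 2.18, 2.81 and 2.80 CPM in the 786-O libraries and 14.1, 12.7 and 14.2 CPM in those of 786-M1A. The 3 lines were fully separated, with 786-M1A between the other two. The level in 786-O was 16.8-fold below HK2 (log2 fold change -4.07 ± 0.083, SE) and that in 786-M1A 3.18-fold below (-1.67 ± 0.065). 786-M1A was 5.29-fold above 786-O (2.40 ± 0.094), on 508, 488 and 536 reads against 97, 106 and 119.

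*LOXL1* (chromosome 15, 73925989 to 73952137, plus strand), an oxidase known for its part in elastic fibre maintenance, followed the same order. Its level was 25.0, 29.7 and 29.2 CPM in HK2, 5.15, 4.08 and 4.08 CPM in 786-O and 13.0, 10.7 and 9.89 CPM in 786-M1A. The 3 lines were again fully separated. It was 6.31-fold lower in 786-O (log2 fold change -2.66 ± 0.11, SE) and 2.51-fold lower in 786-M1A (-1.33 ± 0.097) than in HK2, and 2.51-fold higher in 786-M1A than in 786-O (1.33 ± 0.12). *LOXL1-AS1*, an antisense gene that shares 335 exon bases with *LOXL1*, averaged 1.62 ± 0.242, 0.0392 ± 0.0245 and 0.607 ± 0.109 CPM in HK2, 786-O and 786-M1A (SD, n = 3 each), the same order as *LOXL1*. The strand setting of the counting is not given in the sources used here, so reads on shared bases may have been given to either gene.

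*LOXL2* (chromosome 8, 23296897 to 23425328, minus strand), an oxidase with scavenger receptor domains that acts on collagen IV, was the only lysyl oxidase of the 5 with a higher level in the cancer lines. It had 586, 563 and 574 CPM in HK2, 856, 861 and 836 CPM in 786-O and 977, 962 and 930 CPM in 786-M1A. All 3 lines were separated, but the steps were small next to those of the other oxidases. The level rose 1.48-fold from HK2 to 786-O (log2 fold change 0.57 ± 0.033, SE), 1.67-fold from HK2 to 786-M1A (0.74 ± 0.033) and 1.12-fold from 786-O to 786-M1A (0.17 ± 0.033). The overlapping genes *LOXL2-AS1* (178 shared exon bases) and *ENTPD4* (120) averaged at most 0.794 and 72.9 CPM in any line, and *ENTPD4* was lower in both cancer lines than in HK2.

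*LOXL3* (chromosome 2, 74532258 to 74555690, minus strand), an oxidase of the same scavenger receptor subgroup, was read at a low level. It had 4.93, 5.00 and 5.63 CPM in HK2, 0.967, 0.874 and 1.13 CPM in 786-O and 0.918, 0.757 and 0.846 CPM in 786-M1A. The HK2 libraries stood above the others, and the libraries of both cancer lines overlapped. It was 5.23-fold lower in 786-O (log2 fold change -2.39 ± 0.13, SE) and 6.20-fold lower in 786-M1A (-2.63 ± 0.14), and the difference between the cancer lines was -0.24 ± 0.19. *LOXL3* shares 936 exon bases with *HTRA2*, which had 20.5 ± 1.92 CPM in HK2, 12.7 ± 0.662 in 786-O cells and 14.2 ± 0.534 in 786-M1A (SD, n = 3 each). It shares 216 with *DOK1*, which had 25.7 ± 0.586, 20.0 ± 1.71 and 16.9 ± 1.30 CPM in the same order. Part of the few *LOXL3* reads may belong to these genes.

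*LOXL4* (chromosome 10, 98247690 to 98268194, minus strand), the last oxidase of that subgroup, was the gene with the widest gap. The HK2 libraries held 425, 507 and 492 reads (13.6, 12.6 and 10.6 CPM), the 786-O libraries 4, 1 and 1 reads, and the 786-M1A libraries 0. Its mRNA was therefore barely detectable in 786-O and not detectable in 786-M1A at this depth, where 0 reads allow up to 3 counts in a library. HK2 exceeded 786-O by a ratio of 251 (exact 95% interval for counting error 115 to 685, on 1424 against 6 reads; 484, with an interval of 134 to 4001, without 786-O replicate 1, which held 4 of the 6), and exceeded 786-M1A at least 147-fold with 3 counts set in each 786-M1A library. No fold is given between the cancer lines, where 6 reads stand against 0, and the pass of *LOXL4* among the 8 genes above rests on those 6 reads.

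The α subunits of prolyl 4-hydroxylase were the genes with the larger relative gains in 786-O. *P4HA1* (chromosome 10, 73007217 to 73096974, minus strand) had 63.4, 65.7 and 64.3 CPM in HK2, 137, 144 and 155 CPM in 786-O and 116, 120 and 123 CPM in 786-M1A. No libraries of different lines overlapped, and 786-O was highest. *P4HA1* was 2.25-fold higher in 786-O (log2 fold change 1.17 ± 0.045, SE) and 1.85-fold higher in 786-M1A (0.89 ± 0.045) than in HK2, and lower in 786-M1A than in 786-O by -0.28 ± 0.044.

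*P4HA2* (chromosome 5, 132190147 to 132295315, minus strand), which encodes the alternative α subunit, had 48.8, 50.9 and 48.1 CPM in HK2, 152, 152 and 151 CPM in 786-O and 137, 137 and 139 CPM in 786-M1A. The order of the lines was that of *P4HA1*, with very little spread within the cancer lines. It was 3.08-fold higher in 786-O (log2 fold change 1.62 ± 0.038, SE) and 2.80-fold higher in 786-M1A (1.49 ± 0.038), with -0.14 ± 0.036 between the cancer lines. *P4HA2-AS1*, which shares 548 exon bases with it, had between 0 and 2 reads in each library.

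Among the lysyl hydroxylases, *PLOD1* (chromosome 1, 11934205 to 11975538, plus strand), which hydroxylates lysines of the collagen helix, had 285, 278 and 282 CPM in HK2, 479, 462 and 471 CPM in 786-O and 526, 508 and 488 CPM in 786-M1A. HK2 was lowest in every library, and the lowest 786-M1A library was only just above the highest of 786-O. *PLOD1* was 1.67-fold higher in 786-O (log2 fold change 0.74 ± 0.035, SE), 1.80-fold higher in 786-M1A (0.85 ± 0.035) and 0.11 ± 0.035 higher in 786-M1A than in 786-O.

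*PLOD2* (chromosome 3, 146035139 to 146163725, minus strand), which hydroxylates lysines of the collagen telopeptides, had 369, 366 and 370 CPM in HK2, 617, 666 and 675 CPM in 786-O and 605, 622 and 645 CPM in 786-M1A. Both cancer lines were above HK2, and their own libraries overlapped. The differences were 1.77-fold for 786-O (log2 fold change 0.83 ± 0.038, SE) and 1.69-fold for 786-M1A (0.76 ± 0.038). Between the cancer lines it was -0.065 ± 0.037.

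*PLOD3* (chromosome 7, 101205977 to 101218420, minus strand), whose product also transfers sugars to hydroxylysine, had 153, 148 and 150 CPM in HK2, 336, 321 and 310 CPM in 786-O and 445, 427 and 411 CPM in 786-M1A. It was the hydroxylase gene with the clearest step between the cancer lines, and no libraries of different lines overlapped. It was 2.15-fold higher in 786-O (log2 fold change 1.10 ± 0.039, SE) and 2.85-fold higher in 786-M1A (1.51 ± 0.040) than in HK2, and 1.33-fold higher in 786-M1A than in 786-O (0.41 ± 0.038). *ZNHIT1*, which shares 102 exon bases with *PLOD3*, was also higher in 786-M1A than in 786-O (0.46, adjusted p = 1.438e-07 in edgeR), but was close to its HK2 level in 786-O (0.05, adjusted p = 0.3717).

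**Figure D2:**
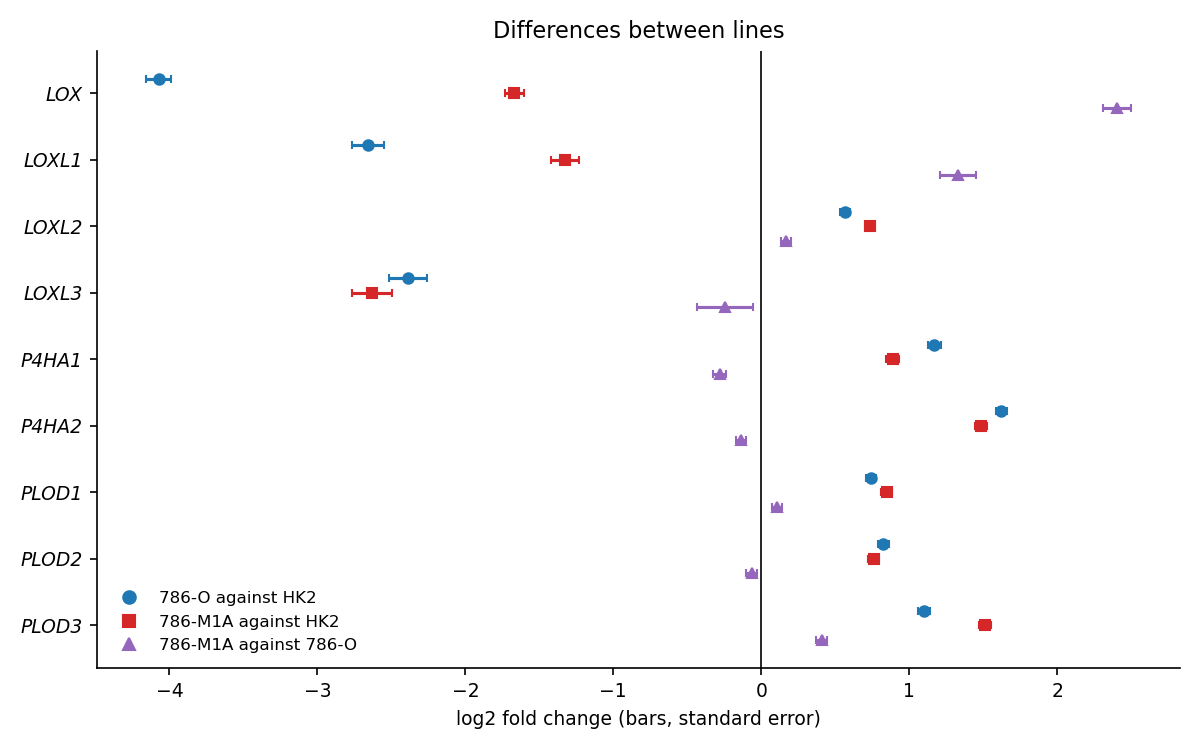
Log2 fold change (x axis, bars are standard errors from the edgeR fit) of each gene in 786-O against HK2 (circles), 786-M1A against HK2 (squares) and 786-M1A against 786-O (triangles). *LOXL4* is not drawn because its reads in the cancer lines were too few for a fitted value. *LOX*, *LOXL1* and *LOXL3* lie left of 0 against HK2 and all other genes right of it, and only *LOX* and *LOXL1* exceed 1 between the cancer lines.

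Levels of different genes were compared per kilobase of the Ensembl canonical transcript. On this scale *LOXL2* was the highest of the 10 genes in every line, at 154 ± 3.06, 229 ± 3.52 and 257 ± 6.38 CPM per kb in HK2, 786-O and 786-M1A (SD, n = 3 each). The lysyl hydroxylases followed and *P4HA1* came after them in each line. In HK2 the libraries of *LOXL1* and *P4HA2* overlapped on this scale, and in 786-M1A those of *PLOD1* and *PLOD2*, while all other neighbours in the order were separated. *LOX* was 8.56 ± 0.497 CPM per kb in HK2, 0.512 ± 0.0711 in 786-O cells and 2.70 ± 0.160 in 786-M1A.

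The composition of each family changed with the line. *LOXL2* made up 85.9% ± 0.781 of the summed per-length level of the 5 lysyl oxidases in HK2, 98.8% ± 0.0833 in 786-O cells and 97.1% ± 0.227 in 786-M1A (SD, n = 3 each). The share of *LOX* was 4.76% ± 0.283, 0.221% ± 0.0322 and 1.02% ± 0.0706, and that of *LOXL1* 6.64% ± 0.666, 0.816% ± 0.109 and 1.80% ± 0.216. The ratio of *LOXL2* to *LOX*, per length, was 18.1 ± 1.21 in HK2, 454 ± 71.4 in 786-O cells and 95.6 ± 6.79 in 786-M1A. In spite of the losses of the other 4 genes, the summed level of the family was higher in the cancer lines, at 180 ± 2.13, 231 ± 3.56 and 265 ± 6.98 CPM per kb.

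For the hydroxylases, the sum of *P4HA1* and *P4HA2* was 34.3 ± 0.704 CPM per kb in HK2, 86.3 ± 3.22 in 786-O cells and 73.9 ± 1.45 in 786-M1A, and the ratio of *P4HA2* to *P4HA1* was 0.461 ± 0.00873, 0.632 ± 0.0421 and 0.697 ± 0.0159 (SD, n = 3 each). Relative to *P4HB*, the partner subunit that is also abundant as a free isomerase, both α subunits together amounted to 9.86% ± 0.271, 15.1% ± 0.719 and 12.3% ± 0.801. The 3 *PLOD* genes summed to 246 ± 2.59, 447 ± 1.67 and 488 ± 7.07 CPM per kb, and the ratio of *PLOD3* to *PLOD1* was 0.562 ± 0.00230, 0.722 ± 0.0239 and 0.889 ± 0.00264. These shares depend on the length chosen. With the union of all annotated exons, *P4HA1* took 81.1%, 75.8% and 73.9% of the *P4HA* sum instead of 68.5%, 61.3% and 58.9%, and *PLOD2* fell from 39.9%, 39.0% and 34.1% of the *PLOD* sum to 24.2%, 23.6% and 20.1%, whereas *LOXL2* kept 82.7%, 98.7% and 96.5% of the lysyl oxidases.

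**Figure D3:**
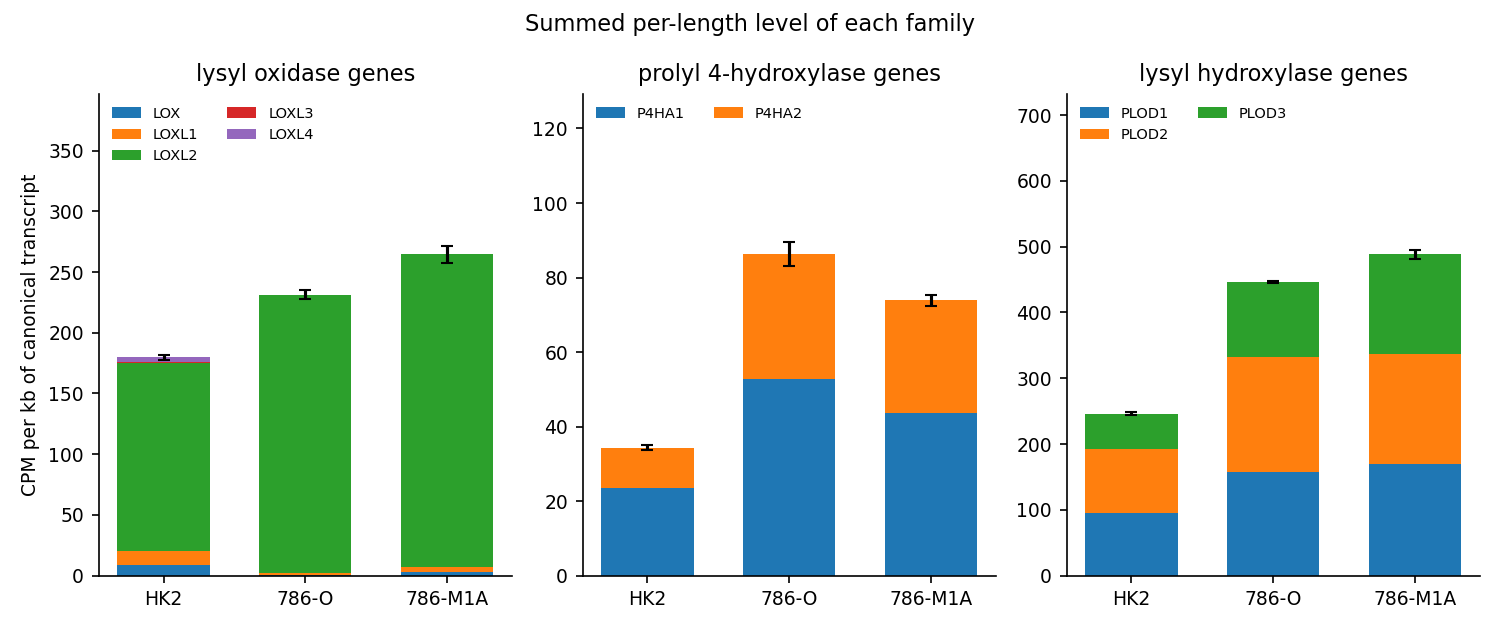
Summed level of the lysyl oxidase, prolyl 4-hydroxylase α subunit and lysyl hydroxylase genes in CPM per kb of canonical transcript (y axis, from 0, a separate scale for each panel), stacked by gene for the mean of 3 libraries per line. Whiskers are the SD of the sum. All 3 sums are lowest in HK2, and *LOXL2* fills almost the whole bar of the lysyl oxidases in the cancer lines.

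The genes that work before and after these enzymes were read from a list of 26 collagen maturation genes, 25 of which were tested. In 786-O against HK2, 23 of the 25 passed the threshold, 13 higher and 10 lower, with a median log2 fold change of 0.44. In 786-M1A against HK2, 22 passed, 10 higher and 12 lower, with a median of -0.08, and between the cancer lines 16 passed, 7 higher and 9 lower, with a median of -0.01. The shares of all genes tested that passed, 84.2%, 85.0% and 56.2%, were not far from these. Among the 8 hydroxylase partners and prolyl 3-hydroxylases, 6 were higher and 2 lower in 786-O than in HK2, and 5 were higher and 3 lower in 786-M1A. Of all genes tested, 41.7% were higher and 42.5% lower in 786-O, and 42.0% and 42.9% in 786-M1A. *P4HB* rose with its α subunits, from 849 ± 6.11 CPM in HK2 to 1389 ± 14.1 in 786-O (log2 fold change 0.71 ± 0.035, adjusted p = 4.08e-14 in edgeR) and 1465 ± 71.5 in 786-M1A (0.79 ± 0.035, adjusted p = 5.969e-15). *P4HA3*, which encodes the third α subunit, went the other way. It had 5.17 ± 0.952 CPM in HK2, 0.154 ± 0.0588 in 786-O cells and 0.827 ± 0.150 in 786-M1A (SD, n = 3 each), an order shared with *LOX* and *LOXL1*. Its difference between the cancer lines was 2.42 ± 0.36, on 7, 8 and 4 reads in 786-O against 24, 37 and 32 in 786-M1A. *P4HA3* passed the filter on low counts only through its 137, 198 and 289 reads in HK2. *P3H3*, a gene of the prolyl 3-hydroxylase family, was 1.97-fold higher in 786-O cells and 2.30-fold higher in 786-M1A than in HK2, whereas *P3H4*, a related gene, was lower in 786-M1A than in 786-O by -0.65 ± 0.051 (adjusted p = 6.876e-10 in edgeR).

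Among the 5 glycosyltransferases and chaperones, *COLGALT1*, which adds galactose to hydroxylysine, rose 3.09-fold in 786-O cells and 3.35-fold in 786-M1A, from 140 ± 4.45 to 433 ± 14.8 and 469 ± 14.9 CPM (adjusted p = 1.607e-19 and 4.734e-20 in edgeR). Its paralogue *COLGALT2* fell from 5.64 ± 0.719 to 0.257 ± 0.0089 and 0.279 ± 0.123 CPM. *COLGALT2* passed the filter on low counts only through HK2, which set the direction of its calls against HK2. *SERPINH1*, which encodes the collagen chaperone HSP47, fell from 410 ± 3.24 CPM in HK2 to 216 ± 4.17 in 786-O cells and 220 ± 11.2 in 786-M1A (log2 fold changes -0.92 ± 0.038 and -0.90 ± 0.038, adjusted p = 1.977e-15 and 3.005e-15 in edgeR). *FKBP10*, a prolyl isomerase of the endoplasmic reticulum, was 2.04-fold higher in 786-O cells and 1.63-fold higher in 786-M1A. Of 5 procollagen export genes, 2 were higher and 2 lower in each cancer line than in HK2, where 84.2% and 85.0% of all genes tested passed. *MIA3* (TANGO1), which loads procollagen into carriers, was the only 1 to pass between the cancer lines (-0.48 ± 0.036, adjusted p = 4.189e-10 in edgeR), where 56.2% of all genes tested passed.

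Of 7 procollagen processing genes tested, 2 were higher and 4 lower in 786-O, and 1 was higher and 5 lower in 786-M1A, than in HK2. Of all genes tested, 41.7% were higher and 42.5% lower in 786-O, and 42.0% and 42.9% in 786-M1A. With so few genes, these counts say little about the group. *BMP1*, the protease that removes C-propeptides and also activates pro-LOX, had 130 ± 5.11 CPM in HK2, 135 ± 1.26 in 786-O cells and 111 ± 4.27 in 786-M1A, and was lower in 786-M1A than in 786-O by -0.28 ± 0.040 (adjusted p = 4.09e-06 in edgeR). *TLL1*, a protease of the same family, was 4.80-fold lower in 786-O cells and 6.15-fold lower in 786-M1A than in HK2, and *TLL2* was lower in 786-M1A than in 786-O (-0.55 ± 0.082, adjusted p = 8.502e-06 in edgeR). *PCOLCE2*, an enhancer of C-propeptide cleavage, had 15.9 ± 0.193, 4.02 ± 0.361 and 14.1 ± 0.247 CPM and was thus 3.51-fold higher in 786-M1A than in 786-O. *ADAMTS2*, which removes N-propeptides, had 2 reads over the 3 HK2 libraries and 913 and 1511 reads in those of 786-O and 786-M1A, ratios to HK2 of 432 (exact 95% counting interval 119 to 3571) and 795 (220 to 6573). Both HK2 reads were in replicate 3, and without it the ratios were at least 76.4 and 140. *ADAMTS2* passed the filter on low counts only through the cancer lines, which set the direction of its calls against HK2.

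The proteins these enzymes act on were read from a list of 22 collagen, elastic fibre and fibronectin genes, 15 of which were tested. In 786-O against HK2, 13 of the 15 passed, 5 higher and 8 lower (median log2 fold change -1.15). In 786-M1A against HK2, 14 passed, 2 higher and 12 lower (median -1.70), and between the cancer lines 13 passed, 3 higher and 10 lower (median -1.20). Of all genes tested, 84.2%, 85.0% and 56.2% passed, 42.5%, 42.9% and 27.1% of all genes being lower, with medians of -0.0118, -0.0102 and 0.0071. *COL11A1* and *FBN2* passed the filter on low counts only through HK2, *EFEMP2* only through the cancer lines and *COL3A1* only through 786-O. The filter thus set the direction of the calls of *COL11A1*, *FBN2* and *EFEMP2* against HK2. It likewise set that of *COL3A1* in 786-O against HK2 and in 786-M1A against 786-O. With at least 10 counts in every library, 9 of 10 substrate genes tested passed in 786-M1A against HK2, 1 higher and 8 lower. *COL1A1*, the α1 chain of collagen I, had 53.5 ± 4.16 CPM in HK2, 291 ± 34.5 in 786-O cells and 16.5 ± 1.29 in 786-M1A (SD, n = 3 each), and 786-M1A was 17.6-fold below 786-O (adjusted p = 1.983e-10 in edgeR). Its partner chain *COL1A2* had no read in HK2 and averaged 0.079 ± 0.0227 CPM in 786-O cells and 0.0088 ± 0.0153 CPM in 786-M1A. *COL3A1* had 449 reads over the 786-O libraries and 1 over those of 786-M1A, a ratio of 404 (exact 95% counting interval 72.1 to 15973), or at least 45.4 without 786-M1A replicate 1, which held that read.

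*COL6A3*, a chain of the beaded collagen VI, rose from 4.25 ± 0.244 CPM in HK2 to 388 ± 32.9 in 786-O cells and 1882 ± 189 in 786-M1A (log2 fold changes 6.50 ± 0.12 and 8.78 ± 0.12, adjusted p = 3.27e-12 and 3.224e-13 in edgeR). *COL6A2* was lower in 786-O than in 786-M1A by a small amount (0.16 ± 0.044, adjusted p = 0.004754 in edgeR). *COL5A1*, a minor fibrillar chain, fell from 185 ± 9.91 CPM in HK2 to 5.02 ± 0.725 in 786-O cells and 0.642 ± 0.0341 in 786-M1A. *COL11A1* had 4546 reads in HK2, 2 in 786-O cells and 0 in 786-M1A, which put HK2 above 786-O by a ratio of 2403 (exact 95% counting interval 665 to 19845, or at least 489 without 786-O replicate 1, which held both reads) and above 786-M1A at least 466-fold.

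The main chains of collagen IV, the network collagen of basement membranes, fell in both cancer lines. *COL4A1* had 2088 ± 82.3, 725 ± 25.4 and 399 ± 6.39 CPM and *COL4A2* 1869 ± 54.3, 766 ± 50.9 and 617 ± 24.5 CPM in HK2, 786-O and 786-M1A (SD, n = 3 each). Both were also lower in 786-M1A than in 786-O (-0.86 ± 0.036 and -0.31 ± 0.044, adjusted p = 2.914e-14 and 5.751e-06 in edgeR). *COL4A5* had 5 reads over the 786-M1A libraries, against 1625 in HK2 and 2784 in 786-O, ratios of 309 (exact 95% counting interval 132 to 952) and 500.4 (214 to 1542). *ELN*, which encodes elastin, was below the filter, at 0.697 ± 0.0844 CPM in HK2, 0.120 ± 0.0395 in 786-O cells and 0.106 ± 0.0505 in 786-M1A. *FBN2*, a microfibril gene, had 3683 reads in HK2, 1 in 786-O cells and 0 in 786-M1A, which put HK2 above 786-M1A at least 372-fold. *EFEMP2*, whose product (fibulin-4) tethers pro-LOX to elastic fibres, had 18 reads over the HK2 libraries, 3209 over those of 786-O and 2576 over those of 786-M1A, ratios of 169 (exact 95% counting interval 107 to 285) and 151 (95.1 to 255). Without HK2 replicate 2, which held 11 of the 18 reads, they were 285 and 255. *FN1* had 6528 ± 657, 1643 ± 104 and 3999 ± 494 CPM, so that 786-M1A lay between 786-O and HK2.

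**Figure D4:**
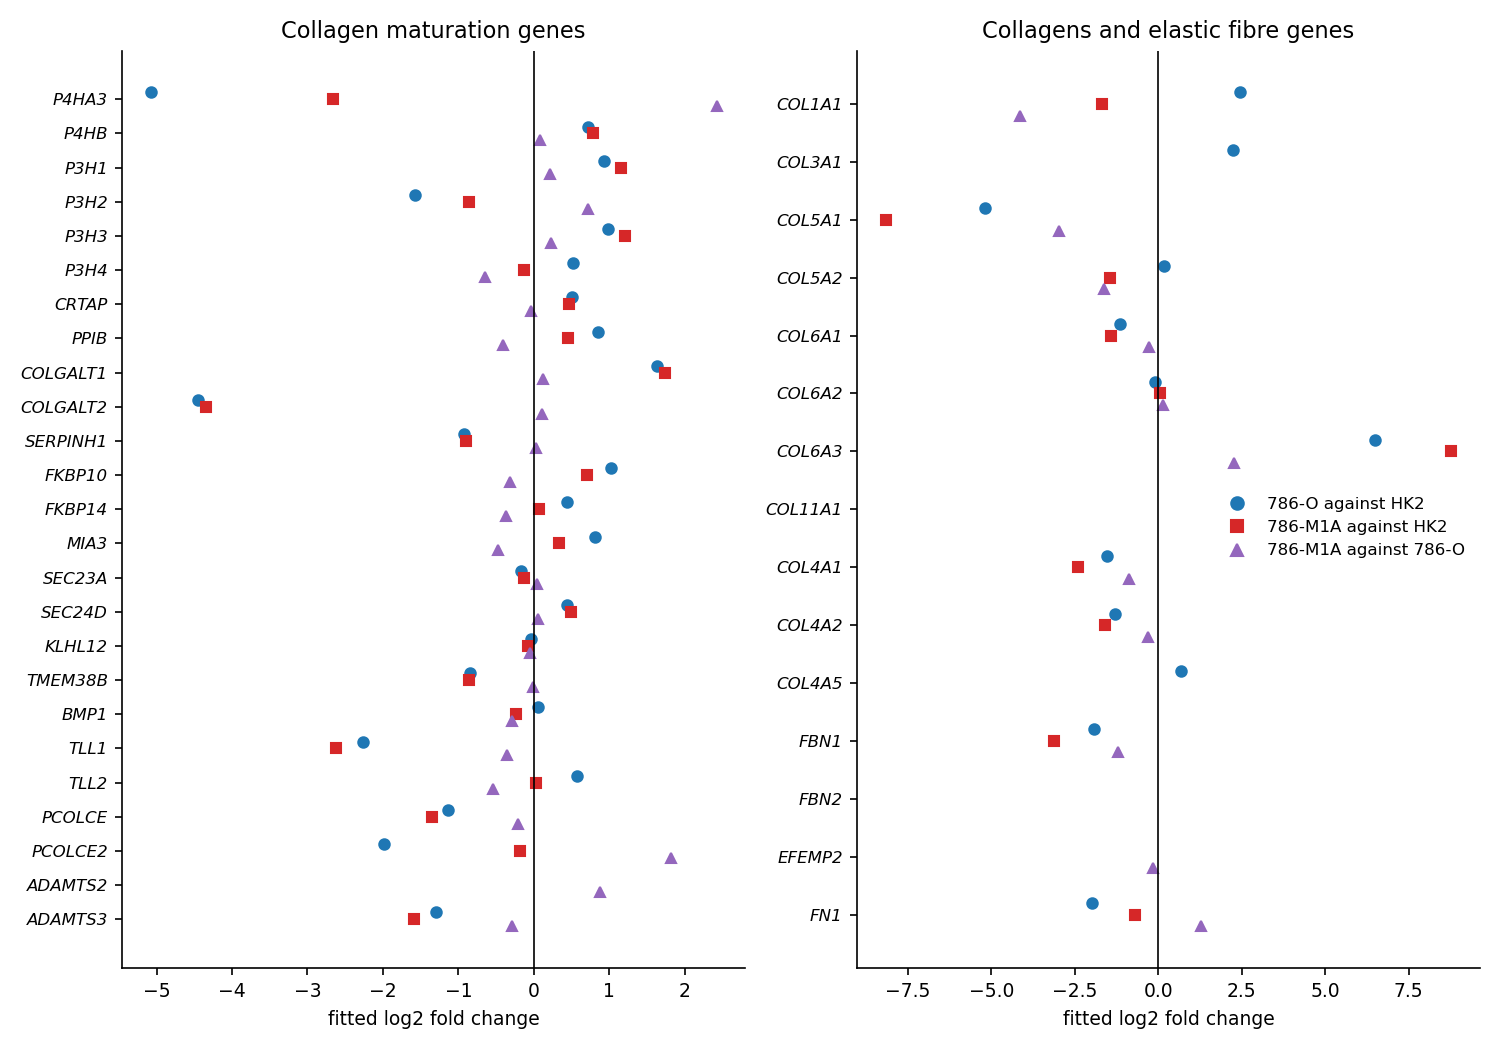
Fitted log2 fold change (x axis) of the 25 collagen maturation genes (left) and 15 collagen, elastic fibre and fibronectin genes (right) tested, in 786-O against HK2 (circles), 786-M1A against HK2 (squares) and 786-M1A against 786-O (triangles). A comparison with 3 counts or fewer in a library of either line is not drawn, which leaves *COL11A1* and *FBN2* empty. Of the collagen genes, *COL5A1*, *COL6A1*, *COL4A1* and *COL4A2* lie left of 0 in both comparisons with HK2 and *COL6A3* far to the right in both, while *COL1A1* and *COL5A2* lie right of 0 in 786-O and left of it in 786-M1A.

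Markers of other cell types were read beside the collagen genes. Of 8 fibroblast markers, *COL1A1*, *COL3A1*, *COL1A2*, *DCN*, *LUM*, *PDGFRB*, *THY1* and *POSTN*, 3 were above 1 CPM in HK2, 4 in 786-O cells and 3 in 786-M1A. They summed to between 78.3 and 87.4 CPM in HK2, 282 and 351 in 786-O cells and 303 and 307 in 786-M1A. *COL1A1* made up most of the sum in 786-O and *PDGFRB*, at 282 ± 2.29 CPM, most of it in 786-M1A. *LUM* averaged 22.5 ± 0.694, 14.6 ± 0.740 and 5.49 ± 0.553 CPM in HK2, 786-O and 786-M1A, and *DCN* and *COL1A2* at most 0.126 and 0.079 CPM in any line. The part of these markers' levels in the results was not tested. The 4 endothelial markers summed to at most 1.11 CPM in a library, and the leukocyte genes *PTPRC* and *CD3E* were at 0 in all 9 libraries, while *CD68*, a lysosomal gene used as a macrophage marker, averaged 50.8 ± 2.26, 26.9 ± 0.613 and 36.1 ± 1.78 CPM. In each line, fewer cells with a transcript and less of it per cell cannot be told apart.

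The regulators of the hypoxia response were read for context. *HIF1A* had 699 ± 20.3 CPM in HK2, 9.98 ± 0.391 in 786-O cells and 6.79 ± 0.222 in 786-M1A (SD, n = 3 each). *EPAS1*, which encodes HIF2A, had 303 ± 18.0, 78.7 ± 1.40 and 123 ± 4.25 CPM, and *VHL*, 31.5 ± 1.06, 28.8 ± 1.26 and 30.4 ± 1.02 CPM. Of 3 hypoxia targets, *NDRG1* was 8.28-fold and 11.6-fold higher in 786-O and 786-M1A than in HK2 (adjusted p = 5.61e-06 and 2.347e-06 in edgeR) and *EGLN3*, itself a prolyl hydroxylase that acts on HIF, 29.3-fold and 75.2-fold (adjusted p = 5.647e-16 and 9.622e-18), while *CA9* was near 0 as given above. Against HK2, the *P4HA1*, *P4HA2* and *PLOD* genes were higher in both cancer lines, as were *NDRG1* and *EGLN3*. *LOX*, with the window that held the most matches to the HIF core motif among the 12, was lower in both. Of the 4 matches in that window, 1 lay in the stretch before the first annotated exon base. Between the cancer lines, *EGLN3* was 2.56-fold and *LOX* 5.29-fold higher in 786-M1A than in 786-O. In that comparison *P4HA1* and *P4HA2* were lower (-0.28 and -0.14), *PLOD1* and *PLOD3* higher (0.11 and 0.41), and *PLOD2* differed by -0.065. The part of HIF in these differences was not tested.

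The genes most like *LOXL4*, *LOX* and *LOXL1*, the 3 whose mean log2 CPM spanned the widest range, were sought by Euclidean distance of centred log2 CPM over the 9 libraries. Nearest to *LOXL4* were *TSPOAP1* (distance 0.636) and *ARHGEF4* (0.707), which also had 0 reads in every 786-M1A library and at most 4 and 2 reads in a 786-O library. Nearest to *LOX* were *SH3BP1* (0.451), at 18.7 ± 1.06, 1.19 ± 0.216 and 5.20 ± 0.479 CPM in HK2, 786-O and 786-M1A, and *PAQR7* (0.535). Nearest to *LOXL1* were *CCDC28B* (0.393) and *CENPV* (0.418), the latter at 27.8 ± 1.60, 4.83 ± 0.228 and 10.5 ± 0.253 CPM.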

How the data were processed

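RNA of HK2, 786-O and 786-M1A cells (3 libraries each, grouped by their titles) had been sequenced from TruSeq Stranded mRNA libraries on a NextSeq. The authors deposited whole-number read counts per gene without normalization, made with featureCounts of the Rsubread package on GRCh38. The annotation version and the strand setting are not given in the sources used here. Of 28395 NCBI gene identifiers, 27745 matched a RefSeq symbol. Positions, shared exon bases and transcript lengths came from GENCODE 44, promoter windows from RefSeq (GRCh38.p14).

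Counts were scaled to CPM with TMM factors in edgeR 4.0.16 (R 4.3.3). Genes averaging 50 counts or more across all 9 libraries were tested, as in the study's own filter, by the robust quasi-likelihood test of edgeR in 1 fit with a coefficient per line, with p-values adjusted by Benjamini-Hochberg over 12695 genes and a threshold of 0.05. The study itself used limma on VSN values, and a count model was used here because the files hold counts. Standard errors are the log2 fold change divided by the square root of F. Where a line had few reads, an exact 95% counting interval of the ratio is given, and with 0 reads a bound from 3 counts per library. The model was also tested on simulated data. Depth was between 30212291 and 45362428 counts per library.

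The enzyme genes and the lists were chosen with earlier results of these data known. The adjusted p-values printed with list genes therefore describe these libraries and are no independent support. Named from the lists are, for each comparison, the 3 genes past the threshold with the largest positive and negative differences, and *P4HB*, *SERPINH1*, *P4HA3*, *COLGALT1*, *BMP1*, *COL1A1*, *COL1A2*, *COL4A1*, *COL4A2* and *ELN* whatever their values. Alternatives were RLE and upper-quartile factors, DESeq2 1.42.0, limma 3.58.1 on log2 counts (0 set to 0.5), no filter, at least 10 counts in every library, a fit of each pair of lines alone, a block for the replicate number, and omission of each library.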

Additional observations from a re-analysis of the deposited data

Results flagged for a closer look

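Among the genes of the enzyme family, the collagen maturation and substrate lists and the hypoxia genes that were tested, 4 collagen genes were above every HK2 library in all 786-O libraries and below every HK2 library in all 786-M1A libraries. The difference between these opposite moves was not tested as such, and *COL5A2*, which was chosen for naming after its values were seen, did not pass the threshold in 786-O against HK2 (log2 fold change 0.17 ± 0.084, adjusted p = 0.07179 in edgeR). *COL1A1* averaged 53.5 CPM in HK2, 291 in 786-O cells and 16.5 in 786-M1A. *COL3A1* averaged 0.763, 3.60 and 0.00927 CPM, *COL4A5* 13.8, 22.4 and 0.0449 CPM, and *COL5A2* 8.05, 8.99 and 2.92 CPM in the same order. *COL3A1* passed the filter on low counts only through 786-O. None of the 10 lysyl oxidase and hydroxylase genes moved in opposite directions from HK2 in the cancer lines.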

How the results depend on the processing

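None of the 30 log2 fold changes of the 10 genes changed sign under any of the alternatives. Of 417 alternative values, 410 kept their side of the threshold, and the other 7 concerned 786-M1A against 786-O. *PLOD1* did not pass without 786-O replicate 2 (0.095) or without 786-M1A replicate 1 (0.081), and *PLOD2* passed without 786-O replicate 1 (-0.10). *LOXL4* did not pass without 786-O replicate 1 or without any one of the 786-M1A libraries. *LOXL4* was not tested with at least 10 counts in every library. Leaving out a library gave 10 genes past the threshold in both comparisons with HK2, and between 6 and 8 between the cancer lines. The count of substrate genes in 786-M1A against HK2 was 9 instead of 14 with at least 10 counts in every library, where fewer genes were tested. The median over all genes stayed between -0.0671 and 0.0098 under all scalings.

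Samples with the same replicate number did not deviate together in all pairs (correlations from -0.167 to 0.215), so the numbers name the libraries only. In the fit with a replicate block, 10, 10 and 8 of the 10 genes passed, and no call of a gene of the family changed.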
